A study of Mus musculus with 15 samples.

Results

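Forelimb joint tissue of arthritic mice given the compound F20 was compared with that of untreated arthritic mice by messenger RNA sequencing. The comparison used 10 of the 15 libraries of the series: 5 from mice with collagen-induced arthritis that received F20 (CIA+F20) and 5 from mice with the same arthritis and no F20 (CIA). The other 5 libraries, from non-immunized mice (healthy), share the fit and are shown beside the values. All mice were wild-type DBA/1 males, a strain prone to this model, and were 8 weeks old at assignment. Mice of both arthritic groups were immunized with bovine type II collagen, first in complete and then in incomplete Freund's adjuvant, and were allotted at random once their arthritis index exceeded 5. Oral F20, a code-named compound, was dosed daily at 10 mg/kg over 21 days. The sources used here do not say whether CIA mice received a vehicle, how severe the arthritis was at the end or at what hour mice were killed. The forearm, wrist and paw were freed of skin and most of the muscle, so each library mixes synovium, capsule, bone, marrow and the muscle that stayed behind.

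In this model, antibodies and T cells directed at cartilage collagen draw myeloid cells into the synovium. Bone is lost where macrophage-lineage cells fuse into osteoclasts, under the cytokines M-CSF and RANKL, and dissolve mineral and matrix with acid, proteases and phosphatases. Synovial fibroblasts and chondrocytes add matrix metalloproteinases, which cut collagen and proteoglycan, while the muscle near an inflamed joint can lose mass and oxidative capacity.

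The libraries differed in depth and in tissue mix. CIA+F20 libraries held 26482475 to 31936703 counted reads and CIA libraries 19487687 to 26670636. Values per library are given in CPM, read counts scaled to a common library size with TMM factors, in the order of libraries 1 to 5. Skeletal muscle genes, 18 in number, took 12.5 ± 0.628% of reads in CIA+F20 and 10.5 ± 2.98% in CIA libraries (SD, n = 5 each; exact two-sided permutation test, p = 0.175, adjusted over 4 shares 0.46). CIA 4 (7.08%), CIA 2 (8.93%) and CIA 1 (9.4%) lay below every CIA+F20 library (11.5 to 13%). Transcripts of the mitochondrial genome took 17.9 ± 1.3% and 15.5 ± 4.02% (exact permutation p = 0.23, adjusted 0.46). The first principal component of the 10 libraries (48.7% of variance) placed CIA 4 at -99.68 and CIA 2 at -61.45, CIA 1 at -30.51, CIA 5 at 5.54 and CIA 3 at 10.46, and the CIA+F20 libraries between 23.46 and 47.95. The median gene had an SD of log2 CPM of 0.197 in CIA+F20 and 0.375 in CIA, and 13360 genes (84.7%) varied more among CIA libraries. Whether every library came from its own mouse is not stated, and p-values therefore describe library-to-library spread. For edgeR that spread was estimated over the 3 groups together, including the healthy libraries (median SD 0.176), and so does not measure the CIA spread alone. A fit of only the CIA+F20 and CIA libraries called 1364 genes higher and 1310 lower, against 2219 and 2450 in the fit reported. Transcripts of the limb gene Hoxa11 were present (5.26 ± 1.15 CPM in CIA+F20, 3.29 ± 1.35 CPM in CIA), which alone does not establish the forelimb label. The joint label was met by Prg4, the lubricin of synovium and cartilage (274 ± 230 and 661 ± 367 CPM). The skin keratins Krt5 and Krt14 were at 0 CPM in all 5 CIA+F20 libraries and at most at 0.0461 CPM in CIA. Skin transcripts were not wholly absent: 2 of the 8 genes of the keratinocyte list passed the count filter. The list took 0.000372 ± 6.16e-05% of reads in CIA+F20 and 0.000329 ± 0.000109% in CIA (exact permutation p = 0.476, adjusted 0.476).

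Of 26688 genes, 15770 passed the count filter. A gene was called at an edgeR adjusted p under 0.05, which took 2219 genes higher in CIA+F20 (14.1%) and 2450 lower (15.5%), 29.6% in all. Among them 388 (2.46%) were at least 2-fold higher and 840 (5.33%) at least 2-fold lower, together 7.79%. The libraries of the groups did not overlap for 1306 genes that were higher (8.28%) and 839 that were lower (5.32%), together 13.6%, and 2035 of these genes were also called. The 10 largest rises (Pnpla3, Ppp1r3c, Zp2, Lgi1, Vwa3a, Sbk3, Dkk2, Gbp10, Mettl21e and Scube2) were named only from genes without overlap. So were the 10 largest falls (Slc9b2, Atp6v0d2, Acp5, Slc37a2, Gpnmb, Spp1, Runx1, Galnt6, Ms4a7 and Mmp9). For these genes the lack of overlap stated below was fixed by the rule. The median log2 fold change of all tested genes was -0.06. Counts of called list members below are to be set against the shares of all tested genes, 14.1% higher and 15.5% lower. The lists are not independent, as 33 genes stand in more than 1 of them. Lists near these shares included adipocyte (18.2% higher), heat shock (18.8% higher), excitation-contraction (16.7% higher), cell cycle (12.5% lower) and NRF2 target genes (20% lower). With the muscle score of each library as a covariate (the mean log2 CPM of the skeletal muscle genes), 235 genes were called higher and 117 lower; without CIA 2 and CIA 4 the counts were 1075 and 661. Counts of genes under both fits are given below as "with the muscle covariate" and "without CIA 2 and CIA 4"; the part of the tissue mix in the results was not tested further. Over the 10 fits that left out 1 library each, calls ranged from 1478 (without CIA 2) to 3007 (without CIA 5) higher and from 1405 (without CIA 2) to 3208 (without CIA 5) lower.

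**Figure D1:**
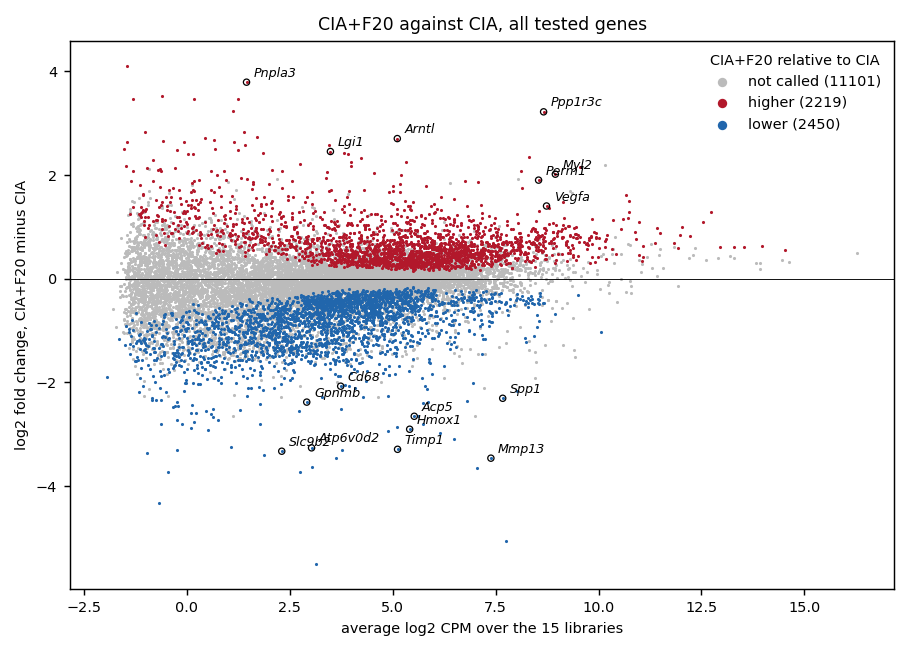
Log2 fold change of CIA+F20 minus CIA (vertical axis) against average log2 CPM over the 15 libraries (horizontal axis) for the 15770 tested genes, with called genes in colour and circled genes named. Genes of bone resorption and matrix breakdown such as Slc9b2, Atp6v0d2 and Mmp13 lie at the bottom, and Ppp1r3c, Pnpla3 and Arntl at the top.

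Osteoclast genes were lower in CIA+F20 joints. Of 21 tested members, 16 fell, 0 rose and 11 did not overlap, with a median log2 fold change of -1.84. The count was 11 with the muscle covariate, 14 without CIA 2 and CIA 4, and 15 to 17 when any single library was left out. In bulk tissue, fewer osteoclasts and less of these transcripts per cell cannot be told apart. Atp6v0d2, a subunit of the osteoclast proton pump needed for cell fusion, stood at 0.99, 3.52, 3.71, 0.951 and 1.94 CPM in CIA+F20 libraries and at 39.6, 29.6, 23.6, 5.07 and 8.54 CPM in CIA libraries (healthy 0.29 to 1.32 CPM). CIA 4 and CIA 5 were the lowest CIA libraries but still above every CIA+F20 library, and the gene fell by 3.26 ± 0.57 (SE) on the log2 scale (edgeR adjusted p = 0.00303). Slc37a2, a sugar phosphate exchanger of osteoclast lysosomes, stood at 3.01, 5.97, 8.27, 5.74 and 4.43 CPM in CIA+F20 and at 42.2, 42.7, 44, 11.7 and 15 CPM in CIA. The same pair of CIA libraries was low, without overlap between the groups, and the log2 fold change was -2.50 ± 0.37 (edgeR adjusted p = 0.00213; 0.0181 with the muscle covariate). Tcirg1, the a3 subunit of the same pump, stood at 18.2, 24.1, 24.1, 19.9 and 25.3 CPM in CIA+F20 and at 73.7, 75.4, 57.1, 61.1 and 32.7 CPM in CIA. Slc9b2, a sodium-proton antiporter of osteoclasts, stood at 0.228, 1.88, 2.51, 1.05 and 0.682 CPM in CIA+F20 and at 23, 18.3, 15.2, 2.77 and 4.64 CPM in CIA. CIA 4 and CIA 5 were again its lowest CIA libraries, with CIA 4 just above CIA+F20 3. Snx10, an endosomal sorting protein whose loss causes osteopetrosis, stood at 4.76, 8.63, 8.03, 5.55 and 7.29 CPM in CIA+F20 and at 31.7, 33.7, 24.5, 19.3 and 13.8 CPM in CIA. Neither Tcirg1 nor Snx10 overlapped between the groups, and their log2 fold changes were -1.43 ± 0.19 and -1.84 ± 0.24 (edgeR adjusted p = 0.00183 and 0.00171).

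Other members of the list were chosen for naming after their values were seen. Ctsk, the collagenase of the resorption pit, averaged 26.6 ± 15.4 CPM in CIA+F20 and 226 ± 153 CPM in CIA (log2 fold change -3.08, edgeR adjusted p = 0.00375), and the highest CIA+F20 library (50.8) passed the lowest CIA library (49.3). The fusion genes Dcstamp (0.341 ± 0.238 and 2.51 ± 1.66 CPM) and Ocstamp (0.556 ± 0.292 and 3.56 ± 2.54 CPM) and the co-receptor gene Oscar (0.403 ± 0.152 and 2.43 ± 1.58 CPM) also fell. The 5 members without a call were Nfatc1, the master transcription factor of osteoclasts (log2 fold change -0.24 ± 0.13), Traf6 (-0.10 ± 0.08), Ostm1 (-0.09 ± 0.10), Car2 (-0.27 ± 0.42) and the calcitonin receptor gene Calcr (0.02 ± 0.37). For Traf6, the adaptor of the RANKL receptor, CIA+F20 libraries ran from 21.5 to 24.3 CPM and CIA libraries from 21.9 to 27.6 CPM.

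**Figure D2:**
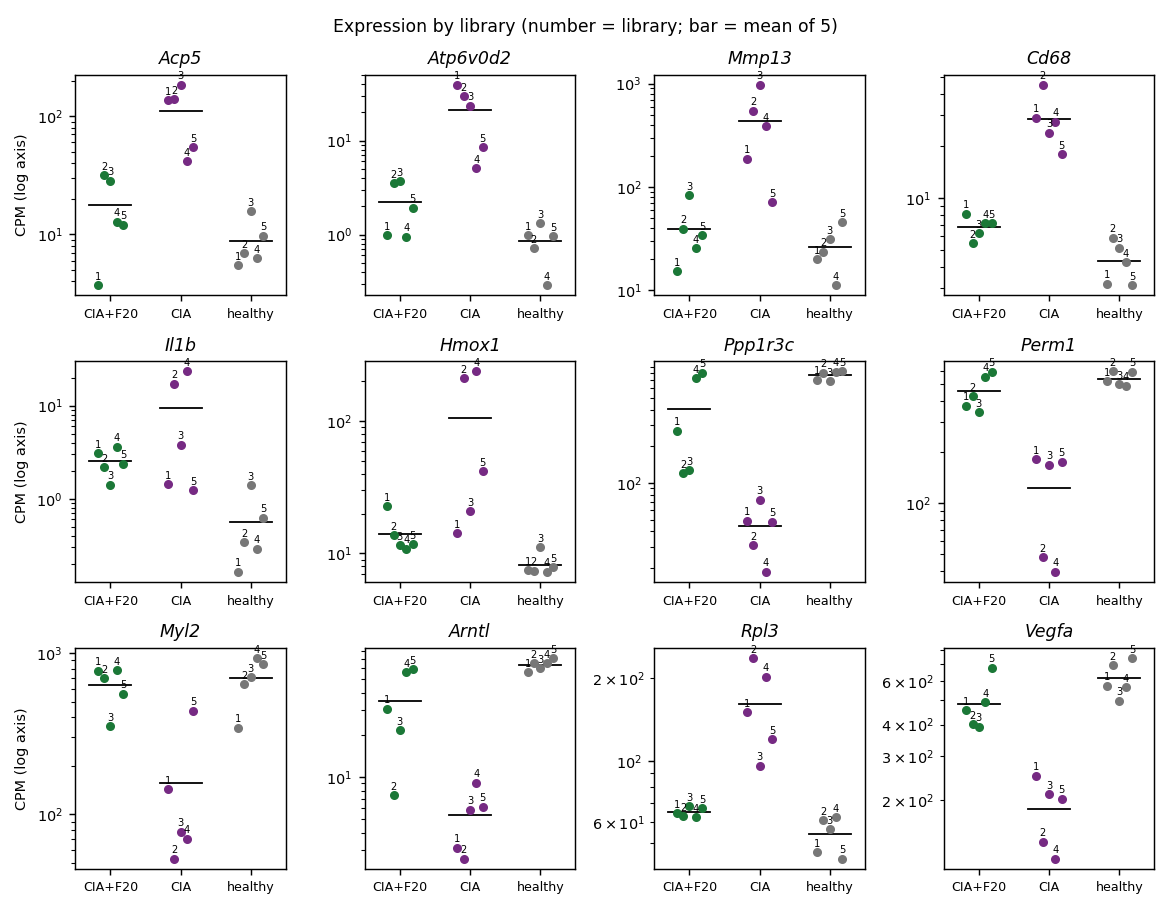
CPM on a log axis in each library (points, numbered by library) of the CIA+F20, CIA and healthy groups for 12 genes, with the group mean as a bar. Acp5, Atp6v0d2 and Cd68 do not overlap between CIA+F20 and CIA, Il1b overlaps, with CIA 1 and CIA 5 low, and Hmox1 is high in CIA 2 and CIA 4.

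Promoters of 5 of the resorption and protease genes that fell were picked for display because they hold the letters of the AP-1 motif (TGANTCA, read on both strands), the element bound by Fos and Jun dimers. The windows of Acp5, Slc9b2, Tcirg1 and Atp6v1a, which fell too, hold no such letters. The sequences are the 150 bases before the annotated start of the gene, GRCm39 genome with GENCODE M39 starts, on the gene's own strand, with motif matches in capitals. They lie at chr4:19922615-19922764 on the minus strand (Atp6v0d2), chr9:37167035-37167184 on the minus strand (Slc37a2), chr2:164789989-164790138 on the plus strand (Mmp9), chr9:7272364-7272513 on the plus strand (Mmp13) and chr9:7445672-7445821 on the plus strand (Mmp3). Mmp13 also holds a match to the interferon-stimulated response element, which is the first run of capitals in its sequence.
Atp6v0d2: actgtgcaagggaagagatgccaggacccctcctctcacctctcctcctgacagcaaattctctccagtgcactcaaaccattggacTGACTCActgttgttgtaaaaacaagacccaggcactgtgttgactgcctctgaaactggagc
Slc37a2: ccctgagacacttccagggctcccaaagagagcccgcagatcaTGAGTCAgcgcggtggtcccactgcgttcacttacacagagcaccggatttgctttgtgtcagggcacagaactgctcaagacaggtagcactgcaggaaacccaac
Mmp9: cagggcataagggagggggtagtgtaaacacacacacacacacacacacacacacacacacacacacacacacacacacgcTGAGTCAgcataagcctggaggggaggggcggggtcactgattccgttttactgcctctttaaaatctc
Mmp13: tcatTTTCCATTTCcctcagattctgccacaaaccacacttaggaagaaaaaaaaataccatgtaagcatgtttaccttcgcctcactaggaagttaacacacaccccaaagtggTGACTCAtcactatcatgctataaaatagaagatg
Mmp3: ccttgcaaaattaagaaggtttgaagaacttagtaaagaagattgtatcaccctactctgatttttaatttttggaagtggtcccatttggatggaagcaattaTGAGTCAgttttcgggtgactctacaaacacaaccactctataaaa

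In windows of 300 bases (250 before to 50 after the start), the AP-1 letters were present in 77 of 836 genes at least 2-fold lower (9.21%), in 29 of 383 at least 2-fold higher (7.57%) and in 907 of all 15712 tested genes with a window (5.77%). In the osteoclast list 5 of 21 windows held these letters and among the metalloproteinases 6 of 15. Such shares were not particular to them: cytokine (3 of 9), synovial fibroblast (4 of 15), interferon-response (4 of 20) and heat shock genes (3 of 16) had them too. The osteoblast (0 of 17) and lysosome (0 of 16) lists held none. The PU.1 letters (GAGGAAGT), the element of a myeloid transcription factor, were present in 5.5% of the 2-fold lower, 2.61% of the 2-fold higher and 2.93% of all windows, and the NF-kB element in 2.51%, 1.57% and 1.39%. The interferon-stimulated element had 5.26%, 3.92% and 3.77%. Over every gene called lower, of any size, the shares were 5.9% for AP-1, 3.64% for PU.1, 1.52% for NF-kB and 4.05% for the interferon-stimulated element. Over every gene called higher they were 5.47%, 2.17%, 1.36% and 2.31%. The AP-1, NF-kB and interferon shares of all genes called lower thus lay near those of all windows. These are descriptions with no test, and a match says nothing of binding.

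The signals that make osteoclasts were lower too. Of 8 tested genes for the RANKL and M-CSF pathways, 6 fell and 0 rose (median log2 fold change -1.54; 5 to 6 when any library was left out), though 0 fell with the muscle covariate and 2 without CIA 2 and CIA 4. Tnfrsf11a, the RANKL receptor RANK, stood at 1.14, 1.47, 2.02, 2.19 and 1.36 CPM in CIA+F20 and at 7.42, 10.4, 6.49, 3.99 and 1.63 CPM in CIA. Only CIA 5 lay within the CIA+F20 range, and the log2 fold change was -1.86 ± 0.41 (edgeR adjusted p = 0.00661). Tnfsf11, RANKL itself, stood at 0.533, 0.941, 0.636, 0.856 and 1.16 CPM in CIA+F20 and at 2.3, 3.4, 6.18, 3.11 and 0.709 CPM in CIA, again with CIA 5 alone in the CIA+F20 range. Its log2 fold change was -1.92 ± 0.54 (edgeR adjusted p = 0.0191). Trem2, a co-receptor that signals through DAP12, averaged 3.34 ± 1.25 CPM in CIA+F20 and 12.6 ± 6.39 CPM in CIA without overlap (log2 fold change -1.91, edgeR adjusted p = 0.00725). Csf1r, the M-CSF receptor, averaged 22.2 ± 4.87 and 62.5 ± 31.1 CPM without overlap (-1.49, edgeR adjusted p = 0.0127). Tnfrsf11b, the decoy receptor osteoprotegerin, gave 9.01 ± 6.82 CPM in CIA+F20 and 10.2 ± 7.62 CPM in CIA; its log2 fold change of -0.17 ± 0.70 (edgeR adjusted p = 0.87; 0.42 on the log2 scale with the muscle covariate) is too imprecise to set the RANKL to osteoprotegerin balance.

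Genes of bone formation were mostly without a call: 4 of 17 osteoblast and bone matrix genes fell, with a median log2 fold change of -1.06 (2 without CIA+F20 1, CIA+F20 4 or CIA 1, 8 without CIA 5; 1 with the muscle covariate and 2 without CIA 2 and CIA 4). Spp1, osteopontin, which osteoclasts and macrophages also make, stood at 56.5, 109, 133, 64.4 and 90.1 CPM in CIA+F20 and at 569, 369, 615, 517 and 169 CPM in CIA. The groups did not overlap, and the log2 fold change was -2.30 ± 0.36 (edgeR adjusted p = 0.00248; 0.0269 with the muscle covariate). Ibsp, bone sialoprotein, averaged 24.7 ± 13 CPM in CIA+F20 and 128 ± 81.8 CPM in CIA (-2.38 ± 0.58, edgeR adjusted p = 0.0105). Runx2, the osteoblast master regulator, averaged 6.95 ± 2.72 and 19 ± 9.07 CPM (-1.45, edgeR adjusted p = 0.0294), a call lost without CIA+F20 1 (0.0686), CIA+F20 4 (0.0709) or CIA 1 (0.0652). None of the 14 tested cartilage genes was called, and Col2a1, the immunizing collagen's gene, averaged 27.8 ± 22.4 and 28.4 ± 36.2 CPM (log2 fold change -0.03 ± 0.80).

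Matrix-degrading enzymes fell in part. Of 15 tested matrix metalloproteinase genes 5 fell (Mmp3, Mmp9, Mmp12, Mmp13 and Mmp14) and 0 rose, 4 to 5 when any library was left out, 2 with the muscle covariate and 3 without CIA 2 and CIA 4. Mmp13, the collagenase of cartilage and bone, stood at 15.4, 39.6, 83.4, 25.5 and 34.1 CPM in CIA+F20 and at 189, 549, 981, 390 and 71 CPM in CIA, so that CIA 5 alone lay within the CIA+F20 range. Mmp3, stromelysin, stood at 10.7, 0.859, 12.2, 13.3 and 13.1 CPM in CIA+F20 and at 53.7, 72.7, 75.6, 175 and 6.24 CPM in CIA, again with CIA 5 low (log2 fold change -2.93 ± 0.72, edgeR adjusted p = 0.0108). Mmp9, the gelatinase of osteoclasts and neutrophils, stood at 16.8, 50.6, 30.2, 14.3 and 40.2 CPM in CIA+F20 and at 110, 190, 158, 154 and 54.5 CPM in CIA. It did not overlap (log2 fold change -2.13 ± 0.49, edgeR adjusted p = 0.00827). Timp1, their inhibitor, which interleukin-6 family cytokines induce, stood at 14, 2.21, 7.78, 17.3 and 5.35 CPM in CIA+F20 and at 55.1, 195, 62.3, 140 and 4.08 CPM in CIA (-3.29 ± 0.77, edgeR adjusted p = 0.00892; 0.138 with the muscle covariate). Timp2, Timp3 and Timp4 were not called, and 0 of these 4 inhibitor genes were called with the muscle covariate or without CIA 2 and CIA 4.

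Tnc and Lox fell among 18 collagen and matrix glycoprotein genes (1 each with the muscle covariate and without CIA 2 and CIA 4; 5 without CIA 4 and 9 without CIA 5). That was 11.1% of the list, against 15.5% of all tested genes. Tnc, the injury-induced glycoprotein tenascin C, stood at 25.8, 46, 35.9, 41.2 and 38.1 CPM in CIA+F20 and at 134, 143, 164, 92.1 and 42.9 CPM in CIA (log2 fold change -1.62 ± 0.31, edgeR adjusted p = 0.00413). Lox, the collagen crosslinking enzyme, ran from 12 to 42.2 CPM in CIA+F20 and was at 76.3, 948, 122, 591 and 19.6 CPM in CIA. Its log2 fold change was -3.65, or -2.85 without CIA 2. Col1a1 (397 ± 84 and 958 ± 710 CPM) and Col3a1 (421 ± 237 and 1203 ± 951 CPM) had log2 fold changes of -1.27 and -1.52 that were not called (edgeR adjusted p = 0.0899 and 0.114). Of 15 synovial fibroblast genes 1 rose (6.67%) and 4 fell (26.7%, against 15.5% of all genes; 1 and 0 with the muscle covariate, 1 and 2 without CIA 2 and CIA 4). The number that fell was 1 without CIA+F20 2 and 2 without CIA+F20 3, CIA+F20 4, CIA 2 or CIA 4. Vcam1, an adhesion molecule of inflamed synovium and endothelium, averaged 14.6 ± 4.17 CPM in CIA+F20 and 35.8 ± 15.6 CPM in CIA without overlap (-1.29, edgeR adjusted p = 0.00714). Of 12 aggrecanase-family genes, Adamts7 fell (1.99 ± 0.238 and 4.11 ± 1.87 CPM, without overlap; -1.04, edgeR adjusted p = 0.0125), as did Adamts6 (-0.76, edgeR adjusted p = 0.0472), whose call was lost in 8 of the 10 fits without a library; 1 of the list fell with the muscle covariate and 2 without CIA 2 and CIA 4. Adamts7 and Adamts6 made up 16.7% of the aggrecanase-family list, near the 15.5% of all tested genes that fell. The aggrecanases proper, Adamts4 (-1.95) and Adamts5 (-0.43), were not called.

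**Figure D3:**
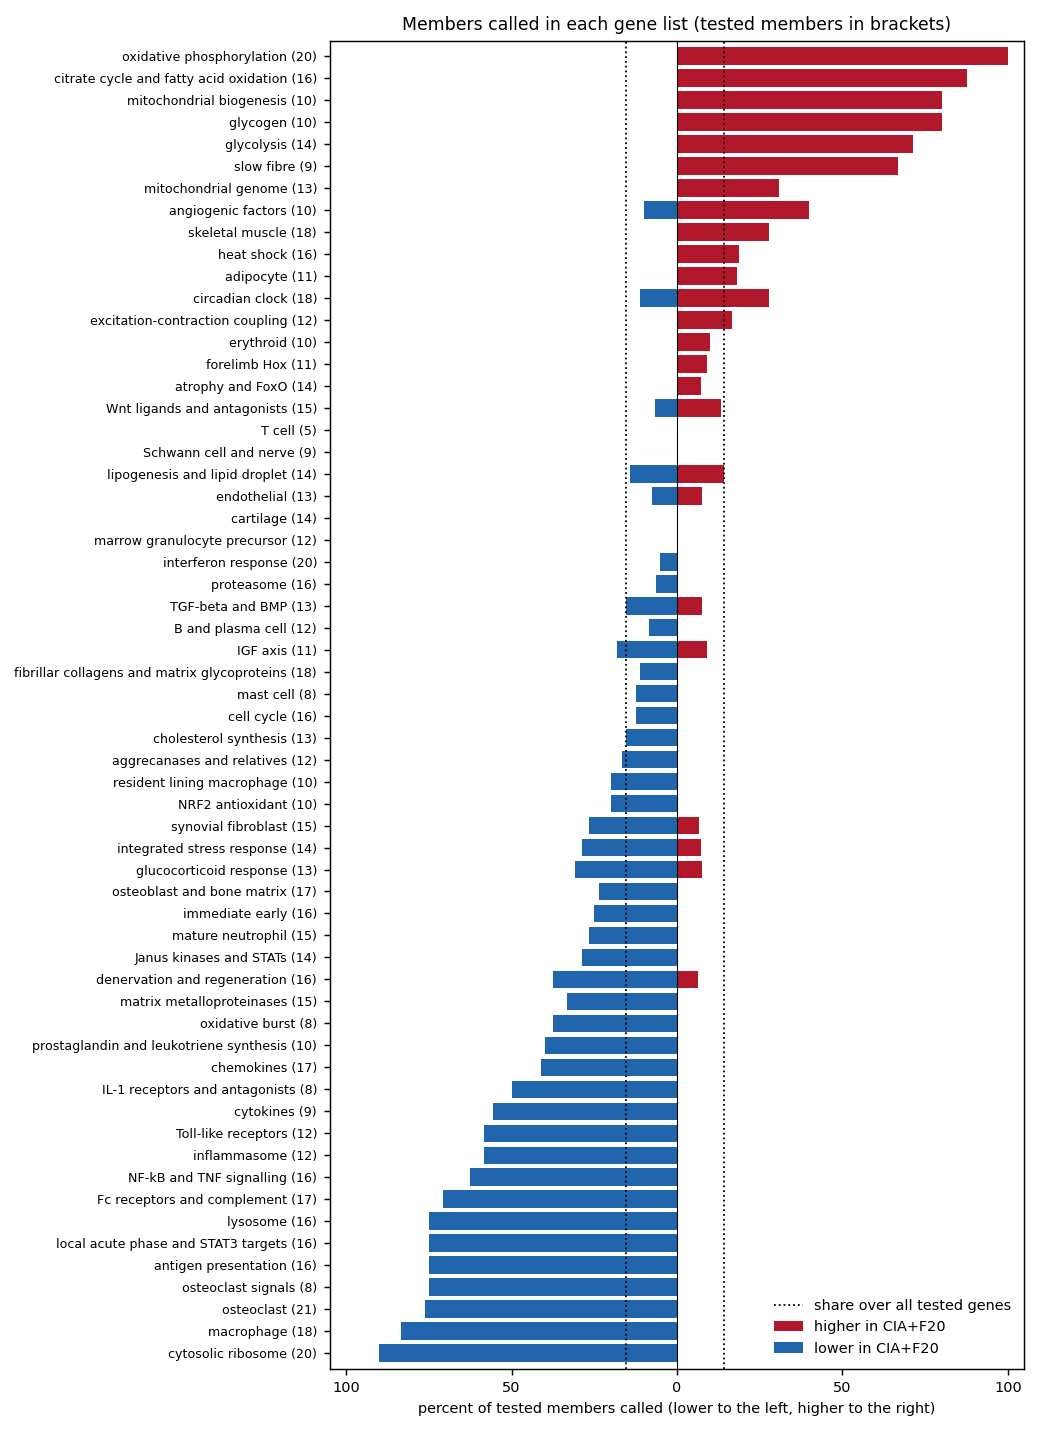
Percent of tested members called higher (to the right) and lower (to the left) in CIA+F20 relative to CIA for each gene list with at least 5 tested members; the number in brackets is the tested members, and dotted lines are the shares over all tested genes (14.1% higher, 15.5% lower). Mitochondrial lists lie at the top, and macrophage, osteoclast and cytosolic ribosome lists at the bottom.

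Macrophage genes were lower in CIA+F20. Of 18 tested genes, 15 fell, 0 rose and 11 did not overlap (median log2 fold change -1.33); 9 fell without CIA+F20 3 or CIA 2, 2 with the muscle covariate and 5 without CIA 2 and CIA 4. Cd68, a lysosomal membrane protein of phagocytes, stood at 8.11, 5.48, 6.26, 7.13 and 7.12 CPM in CIA+F20 and at 29.1, 45.1, 23.8, 27.5 and 17.9 CPM in CIA (edgeR adjusted p = 0.00105; 0.0181 with the muscle covariate). Every CIA library lay above every CIA+F20 library. Gpnmb, a glycoprotein of lipid-laden and bone-resorbing phagocytes, stood at 2.59, 2.09, 3.85, 3.65 and 3.17 CPM in CIA+F20 and at 8.8, 10.2, 14.4, 14.4 and 32.3 CPM in CIA. It was highest in CIA 5, and the groups did not overlap. Ms4a7, a marker of monocyte-derived macrophages, averaged 1.81 ± 0.942 CPM in CIA+F20 and 8.08 ± 5.17 CPM in CIA (log2 fold change -2.15, edgeR adjusted p = 0.00632). Of 10 tested markers of tissue-resident lining macrophages, Trem2 and Cx3cr1 fell (0 with the muscle covariate, 1 without CIA 2 and CIA 4), with a median log2 fold change of -0.03. That was 20% of the list, near the 15.5% of all tested genes, and Trem2 is also counted among the osteoclast signals above. Vsig4 (0.01 ± 0.68), Timd4 (0.34 ± 0.38) and Lyve1 (0.44 ± 0.41) were not called. The call of Cx3cr1 (-1.38, edgeR adjusted p = 0.0443) was lost in 8 of the 10 fits without a library. The scavenger receptors Cd163 (0.06 ± 0.33) and Mrc1 (-0.65 ± 0.39) and the complement gene C1qc (-0.83 ± 0.34) were the 3 macrophage genes without a call.

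Lysosomal genes were lower. Of 16 tested, 12 fell and 0 rose (median log2 fold change -0.65), 11 to 13 when any library was left out, 5 with the muscle covariate and 8 without CIA 2 and CIA 4. Atp6v1a, the catalytic subunit of the proton pump, stood at 33.7, 34.2, 37.3, 29.6 and 32.4 CPM in CIA+F20 and at 60, 62.6, 54.4, 60 and 47.5 CPM in CIA (-0.77 ± 0.09, edgeR adjusted p = 0.00105). The spread in each group was small beside the gap between them. Ctsz, cathepsin Z, averaged 37.4 ± 1.3 and 75.9 ± 17.5 CPM (-1.02 ± 0.13), and Hexa, hexosaminidase A, 56.7 ± 2.52 and 92.9 ± 13.2 CPM (-0.71 ± 0.09; edgeR adjusted p = 0.00171 for both). Tfeb, the transcription factor of lysosomal genes, was not called (0.09). By symbol, a family assembled after the values were seen, 11 of 18 tested V-ATPase subunit genes fell and 1 rose.

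Genes of antigen presentation and of antibody and complement recognition were lower, with less stable counts. Of 16 antigen presentation genes 12 fell (6 without CIA+F20 4 or CIA 4, 7 without CIA+F20 1 or CIA 1, 2 with the muscle covariate, 4 without CIA 2 and CIA 4). H2-Ab1, a class II chain, stood at 16.3, 16.9, 17.2, 15.4 and 16.7 CPM in CIA+F20 and at 32.4, 67.8, 34.7, 38.9 and 22 CPM in CIA. CIA+F20 libraries were nearly level and all below CIA (log2 fold change -1.25 ± 0.28, edgeR adjusted p = 0.00692). Ctss, the cathepsin that trims the invariant chain, averaged 20 ± 5.73 and 71 ± 33.1 CPM (-1.83, edgeR adjusted p = 0.00266), and Itgax, the dendritic cell integrin CD11c, 1.39 ± 0.338 and 6.03 ± 3.45 CPM (-2.11, edgeR adjusted p = 0.00259); neither overlapped. Of 17 Fc receptor and complement genes 12 fell, 3 without CIA 2, 5 to 7 without any single CIA+F20 library, and 0 both with the muscle covariate and without CIA 2 and CIA 4. Fcer1g, the shared signalling chain of Fc receptors, stood at 8.68, 11.7, 7.46, 6.94 and 12.7 CPM in CIA+F20 and at 29.5, 39.8, 13.3, 43.2 and 15.7 CPM in CIA. Its groups did not overlap (-1.57 ± 0.38, edgeR adjusted p = 0.0101).

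The best known inflammatory cytokines of arthritis were not called. Il1b stood at 3.08, 2.17, 1.41, 3.61 and 2.39 CPM in CIA+F20 and at 1.43, 17.2, 3.8, 23.3 and 1.24 CPM in CIA (log2 fold change -1.89 ± 0.73, edgeR adjusted p = 0.0636). CIA 2 and CIA 4 were high, and CIA 1 and CIA 5 lay at the low end of the CIA+F20 libraries or under it. Il6 showed the same 2 libraries: 3.16, 0.205, 0.212, 0.444 and 0.273 CPM in CIA+F20 and 0.277, 6.54, 1.04, 18.6 and 0.177 CPM in CIA (-2.64 ± 1.09, edgeR adjusted p = 0.0772). Its log2 fold change was -4.20 without CIA+F20 1 and -1.25 without CIA 4, and turned to 0.43 with the muscle covariate and 0.76 without CIA 2 and CIA 4. That of Il1b turned to 0.23 without CIA 2 and CIA 4. Tnf averaged 0.645 ± 0.282 CPM in CIA+F20 and 1.37 ± 0.721 CPM in CIA (-1.08 ± 0.54, edgeR adjusted p = 0.138). Among 9 tested cytokine genes 5 fell (3 without CIA+F20 3, CIA+F20 4, CIA 2 or CIA 4; 0 with the muscle covariate and 1 without CIA 2 and CIA 4). Lif, a cytokine of the interleukin-6 family, averaged 0.563 ± 0.139 and 3.72 ± 3.36 CPM (-2.72, edgeR adjusted p = 0.0051; -2.13 without CIA 4), and Tgfb1 16 ± 4.61 and 34.7 ± 17.7 CPM (-1.12, edgeR adjusted p = 0.0137).

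Il1rn, the interleukin-1 receptor antagonist, stood at 1.68, 1.72, 1.87, 1.84 and 1.84 CPM in CIA+F20 and at 4.47, 12.9, 4.15, 11.1 and 5.71 CPM in CIA. CIA+F20 libraries were almost equal and all lower (log2 fold change -2.10 ± 0.41, edgeR adjusted p = 0.00433). It was 1 of 4 among 8 tested interleukin-1 receptor and antagonist genes that fell (1 without CIA+F20 3 or CIA 2, 2 without CIA+F20 1, CIA+F20 2 or CIA 4, 7 without CIA 3; 0 with the muscle covariate, 1 without CIA 2 and CIA 4). In the NF-kB and TNF list 10 of 16 fell and 0 rose, 7 to 12 when any library was left out, 0 with the muscle covariate and 6 without CIA 2 and CIA 4. Nfkbia, the inhibitor IkBa and itself a target of the pathway, stood at 21.8, 28.4, 23.7, 17.7 and 19.9 CPM in CIA+F20 and at 37.6, 43.4, 38.7, 45.2 and 33.3 CPM in CIA. No library of either group crossed over (-0.83 ± 0.15, edgeR adjusted p = 0.00332). Traf1, an NF-kB target and adaptor, averaged 1.64 ± 0.334 and 4.63 ± 1.89 CPM (-1.49), and Tnfrsf1b, TNF receptor 2, 8.62 ± 1.1 and 21.3 ± 10.2 CPM (-1.31; edgeR adjusted p = 0.00435 and 0.00451), both without overlap. Of 12 inflammasome genes 7 fell (11 without CIA 3, 0 with the muscle covariate, 2 without CIA 2 and CIA 4), among them the executioner Gsdmd (9.13 ± 0.866 and 17.8 ± 5.64 CPM; -0.97, edgeR adjusted p = 0.00473) and Casp1 (2.25 ± 0.39 and 5.49 ± 1.92 CPM; -1.28, edgeR adjusted p = 0.00774).

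Acute-phase genes of the interleukin-6 and STAT3 axis depended on the pair of CIA libraries that stood apart. Of 16 tested 12 fell and 0 rose, but 1 fell without CIA 2, 1 without CIA 4, 2 to 4 without CIA+F20 2, 3, 4 or 5, and 0 both with the muscle covariate and without CIA 2 and CIA 4. Their mean log2 CPM, set against the mean of the 10 libraries, was 0.25, -0.93, -1.04, -0.72 and -0.95 in CIA+F20 and 0.04, 2.06, -0.14, 2.12 and -0.68 in CIA. Bcl3, an IkB family member induced by STAT3, stood at 6.32, 2.58, 2.12, 2.54 and 3.27 CPM in CIA+F20 and at 5.9, 17.2, 8.02, 19 and 2.73 CPM in CIA (log2 fold change -1.65, edgeR adjusted p = 0.023; called in 5 of the 10 fits without a library). Saa1, a serum amyloid with a near-identical copy that can take its reads, averaged 0.564 ± 0.517 and 5.36 ± 6.37 CPM (-3.24, edgeR adjusted p = 0.0213) and was not called without CIA 2 (0.0542) or CIA 4 (0.06). Among 14 Janus kinase and STAT genes 4 fell (Jak3, Stat3, Stat6 and Socs1; 1 without CIA+F20 4, 2 without CIA+F20 2, CIA+F20 5, CIA 2 or CIA 4, 7 without CIA 3) and none did with the muscle covariate or without CIA 2 and CIA 4. Of 17 chemokine genes 7 fell (3 without CIA 2, 4 without CIA+F20 2 or CIA 4) and 0 did in either of the other fits. Ccl9, an osteoclast and macrophage chemokine, stood at 13.7, 6.46, 6.9, 11.4 and 11.3 CPM in CIA+F20 and at 25, 45.3, 22.2, 40.2 and 16 CPM in CIA without overlap (-1.58, edgeR adjusted p = 0.0063).

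Innate receptor and lipid mediator genes gave further falls. Of 12 Toll-like receptor genes 7 fell (4 without CIA 2, 11 without CIA 5, 0 with the muscle covariate and 0 without CIA 2 and CIA 4). Tlr13, a sensor of bacterial ribosomal RNA, averaged 2.82 ± 0.686 CPM in CIA+F20 and 9.62 ± 6.21 CPM in CIA without overlap (log2 fold change -1.77, edgeR adjusted p = 0.0125). Ptgs2, the inducible cyclooxygenase COX-2, stood at 0.685, 0.286, 0.566, 2.6 and 0.716 CPM in CIA+F20 and at 3.18, 5.58, 3.65, 15.9 and 0.355 CPM in CIA (-2.54, edgeR adjusted p = 0.0304). The overlap was due to CIA 5, which lay below 4 of the CIA+F20 libraries, and the call was lost in 6 of the 10 fits without a library, with -3.33 without CIA+F20 4 and -1.70 without CIA 4. Hpgd, which inactivates prostaglandins, averaged 5.19 ± 1.83 and 11.4 ± 3.77 CPM without overlap (-1.13, edgeR adjusted p = 0.0183). It was 1 of 4 genes that fell among 10 of prostaglandin and leukotriene synthesis, a count of 1 to 2 in 8 of the fits without a library, 7 without CIA 3, 0 with the muscle covariate and 1 without CIA 2 and CIA 4.

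**Figure D4:**
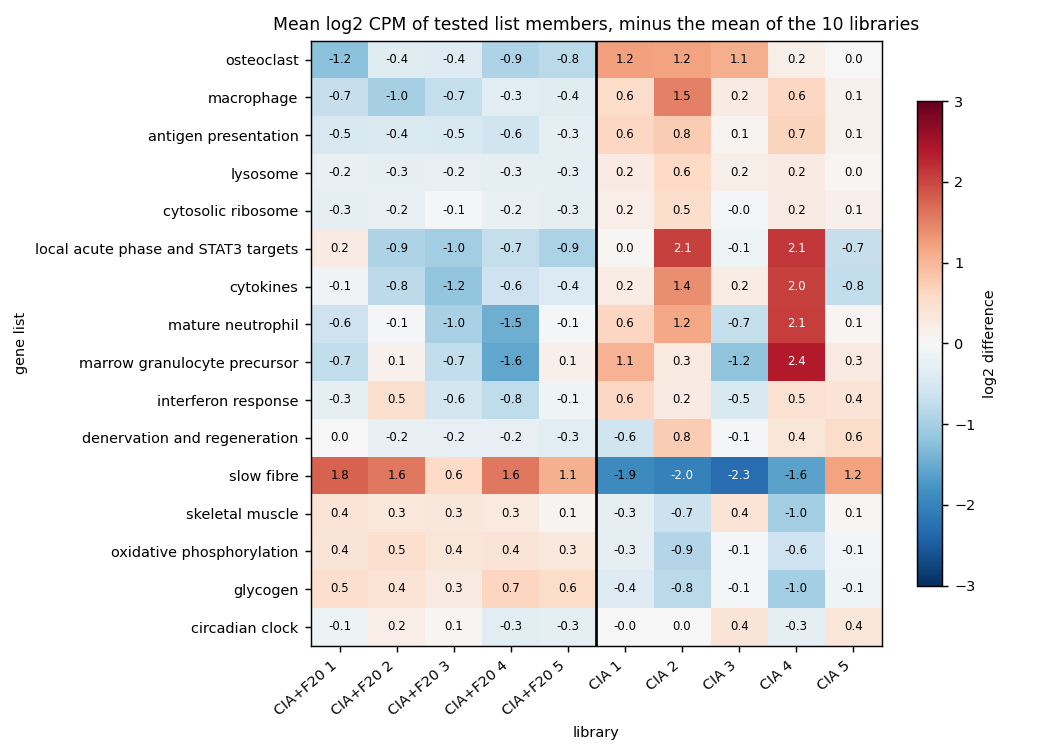
Mean log2 CPM of the tested members of 16 gene lists in each CIA+F20 and CIA library, minus the mean of the 10 libraries; red is higher and blue lower. Osteoclast genes are high in CIA 1, 2 and 3, acute phase and cytokine genes in CIA 2 and 4, granulocyte precursor genes in CIA 4, and slow fibre genes are low in CIA 1 to 4 but not in CIA 5.

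Of 15 mature neutrophil genes 4 fell (Mmp9, Clec4d, Clec4e and Trem1; 26.7%, against 15.5% of all genes), none with the muscle covariate and 1 without CIA 2 and CIA 4. The count was 2 without CIA+F20 1, 2, 3 or 4, CIA 2 or CIA 4, and 11 without CIA 3. S100a8, the calprotectin subunit most abundant in neutrophils, stood at 79.5, 149, 81.5, 47.9 and 149 CPM in CIA+F20 and at 289, 208, 59.2, 674 and 157 CPM in CIA (log2 fold change -1.45 ± 0.70, edgeR adjusted p = 0.125). CIA 3 was below 4 of the CIA+F20 libraries, and CIA 4 far above the rest. With the muscle covariate the log2 fold change of S100a8 was 0.09 and the median of the neutrophil list 0.08, against -1.45 for both without it. None of 12 marrow granulocyte precursor genes was called, and their log2 fold changes ran from -1.56 to -1.30, with a median of -1.42 that turned to 0.08 with the muscle covariate. Their mean log2 CPM against the mean of the 10 libraries was -0.74, 0.13, -0.74, -1.57 and 0.15 in CIA+F20 and 1.05, 0.28, -1.21, 2.37 and 0.28 in CIA. Erythroid genes, which follow marrow and blood, took 0.0976 ± 0.0414% of reads in CIA+F20 and 0.158 ± 0.116% in CIA (exact permutation p = 0.349, adjusted 0.466), with CIA 4 at 0.345% and CIA 3 at 0.0337%. The median log2 fold change of the erythroid list was -0.81, and 0.63 with the muscle covariate. Its only call was a rise: of 10 tested genes Tfrc rose (10%, against 14.1% of all genes) and 0 fell. That call was lost without CIA+F20 5 (edgeR adjusted p = 0.055) or CIA 2 (0.0568) and with the muscle covariate (0.111). None of 5 tested T cell genes was called, and Cd3e, Cd8a and Foxp3 lay under the count filter. Healthy 4, which enters the shared spread estimate, took 0.00727% of reads in T cell genes, against 0.00142% in the highest CIA library (CIA 4). The missing calls therefore do not show that T cells were unchanged. Of 12 B and plasma cell genes Xbp1 alone fell (-0.64, edgeR adjusted p = 0.0323; lost in 6 of the 10 fits without a library), and of 8 mast cell genes Kit alone (-1.12, edgeR adjusted p = 0.0241; lost without CIA+F20 1, CIA+F20 4 or CIA 4). Neither list had a call with the muscle covariate or without CIA 2 and CIA 4. Among 16 cell cycle genes Pcna and Tyms fell and Mki67 did not (30.6 ± 14.3 and 73.6 ± 55.2 CPM; -1.26, edgeR adjusted p = 0.109). The count was 13 without CIA 3, 6 without CIA 5, 1 without CIA 1, and 0 without CIA+F20 1, CIA+F20 3, CIA+F20 4, CIA 2 or CIA 4 and in both of the other fits. Interferon-response genes had 1 call in 20, Zbp1 (3.04 ± 1.46 and 7.82 ± 3.4 CPM; -1.37, edgeR adjusted p = 0.031), which was lost in 5 of the 10 fits without a library (6 genes fell without CIA 3, 3 without CIA+F20 2 and 0 in both of the other fits). Isg15 was at 5.43 ± 2.89 and 7.9 ± 2.47 CPM (-0.54, edgeR adjusted p = 0.299).

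Mitochondrial respiration genes rose as a block. All 20 tested nuclear genes of oxidative phosphorylation rose, 19 of them without overlap, with log2 fold changes from 0.49 to 0.98 (median 0.77). All 20 stayed called in each of the 10 fits without a library and without CIA 2 and CIA 4, and 6 with the muscle covariate. Cycs, cytochrome c, stood at 462, 519, 402, 512 and 455 CPM in CIA+F20 and at 293, 172, 289, 189 and 246 CPM in CIA. Every CIA+F20 library was higher (log2 fold change 0.98 ± 0.15, edgeR adjusted p = 0.00222; 0.0308 with the muscle covariate), and healthy libraries lay between 435 and 580 CPM. Cox5a, a subunit of complex IV, averaged 362 ± 20.7 and 226 ± 39 CPM (0.68 ± 0.11), and Uqcrc2, of complex III, 646 ± 61.4 and 334 ± 92.5 CPM (0.95 ± 0.16; edgeR adjusted p = 0.00258 and 0.00278). By symbol, in a family assembled after the values were seen, 34 of 37 complex I subunit genes rose and 0 fell, 4 with the muscle covariate and 25 without CIA 2 and CIA 4. Genes on the mitochondrial genome were less even: 4 of 13 rose, 9 without CIA 1, 1 without CIA+F20 1, CIA+F20 2, CIA 2 or CIA 4, 2 without CIA+F20 4, and 0 in both of the other fits. mt-Co2, a core subunit of complex IV, averaged 2185 ± 653 CPM in CIA+F20 and 1166 ± 286 CPM in CIA without overlap (0.91, edgeR adjusted p = 0.00945).

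Genes of fuel oxidation and its regulators rose too. Of 16 citrate cycle and fatty acid oxidation genes 14 rose and 0 fell, 12 to 15 when any library was left out, 2 with the muscle covariate and 10 without CIA 2 and CIA 4. Pdha1, of the pyruvate dehydrogenase complex, stood at 860, 871, 807, 833 and 752 CPM in CIA+F20 and at 453, 363, 565, 394 and 608 CPM in CIA (log2 fold change 0.79 ± 0.13, edgeR adjusted p = 0.00276). The groups were apart by more than the spread within either. Of 10 mitochondrial biogenesis genes 8 rose (5 without CIA+F20 2, CIA+F20 3, CIA 1, CIA 2 or CIA 4; 1 with the muscle covariate, 6 without CIA 2 and CIA 4). Perm1, a muscle regulator acting with PGC-1 and ERR, stood at 375, 425, 342, 553 and 592 CPM in CIA+F20 and at 181, 48, 168, 39.5 and 175 CPM in CIA. CIA 2 and CIA 4 were lowest, and no library overlapped (1.90 ± 0.37, edgeR adjusted p = 0.0044). Esrrg, the nuclear receptor ERR gamma, averaged 41.8 ± 9.87 and 15.5 ± 6.28 CPM (1.43 ± 0.24, edgeR adjusted p = 0.00271; 0.0482 with the muscle covariate), and Ppara, the fatty acid sensor, 14.3 ± 4.01 and 3.72 ± 2.86 CPM (1.95 ± 0.40, edgeR adjusted p = 0.00497). Pdk4, which shuts pyruvate dehydrogenase, was not called (-0.28 ± 0.54).

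Ribosomal protein genes moved in opposite directions by compartment. Of 20 cytosolic ribosomal protein genes on the list 18 fell and 0 rose (median log2 fold change -0.41), 15 to 19 when any library was left out, 1 with the muscle covariate and 8 without CIA 2 and CIA 4. Taken by symbol, a choice made after the values were seen, 63 of 82 cytosolic ribosomal protein genes fell (median -0.42), while 58 of 77 mitochondrial ribosomal protein genes rose and 1 (Mrpl52) fell (median 0.37). The muscle covariate left 1 of the falls and 7 of the rises, and leaving out CIA 2 and CIA 4 left 23 and 34, with medians of -0.31 and 0.30. The single cytosolic gene that rose was Rpl3l, the muscle-specific paralogue of Rpl3 (534 ± 40.6 CPM in CIA+F20 and 315 ± 115 CPM in CIA; 0.76 ± 0.20, edgeR adjusted p = 0.0143). Rpl3 itself stood at 64.3, 62.7, 68.4, 62.3 and 67.1 CPM in CIA+F20 and at 150, 236, 96.1, 202 and 120 CPM in CIA (-1.31 ± 0.20, edgeR adjusted p = 0.00222; 0.0247 with the muscle covariate). CIA+F20 libraries were nearly level, and every CIA library was higher. Ribosomal protein genes have many near-identical pseudogenes, so their counts are uncertain.

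**Figure D5:**
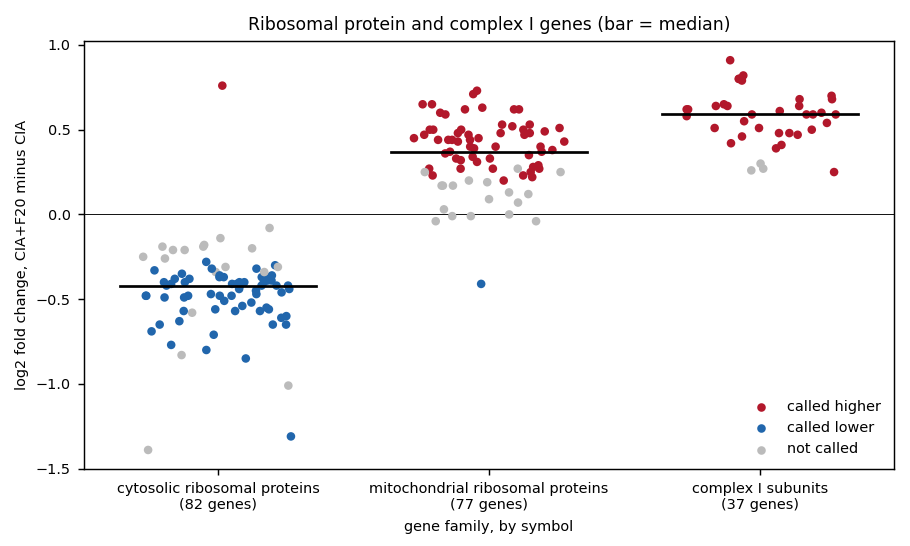
Log2 fold change of CIA+F20 minus CIA (vertical axis) for each tested gene of 3 families chosen by symbol: 82 cytosolic ribosomal protein genes, 77 mitochondrial ribosomal protein genes and 37 complex I subunit genes, with medians as bars (-0.42, 0.37 and 0.59). Points are coloured by call; the lone red point among cytosolic genes is Rpl3l.

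Glycogen and glucose genes rose as well. Of 10 glycogen genes 8 rose and 0 fell, 6 to 10 when any library was left out, 3 with the muscle covariate and 4 without CIA 2 and CIA 4. Ppp1r3c, the subunit that brings protein phosphatase 1 to glycogen and activates its synthesis, stood at 269, 120, 127, 720 and 805 CPM in CIA+F20 and at 49.1, 30.7, 72.9, 18.6 and 48 CPM in CIA (healthy 686 to 823 CPM). CIA+F20 4 and CIA+F20 5 were at the healthy level and the other 3 between the CIA and healthy libraries; the log2 fold change was 3.22 ± 0.53 (edgeR adjusted p = 0.00266; 0.0372 with the muscle covariate). Its promoter, GRCm39 chr19:36714071-36714220 on the minus strand, is shown because it holds the E-box letters in capitals (CACGTG). The E-box is the element bound by the clock factors and by ChREBP and USF. It was present in 6.79% of windows of genes at least 2-fold higher, 9.33% of those at least 2-fold lower and 9.42% of all. Over every gene called, of any size, the shares were 8.41% of those higher and 12% of those lower.
Ppp1r3c: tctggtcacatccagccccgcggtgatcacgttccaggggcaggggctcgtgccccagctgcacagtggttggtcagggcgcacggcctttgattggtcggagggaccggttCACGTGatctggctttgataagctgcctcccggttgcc

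Gys1, muscle glycogen synthase, stood at 667, 690, 528, 655 and 661 CPM in CIA+F20 and at 421, 353, 360, 288 and 406 CPM in CIA, apart in every library (log2 fold change 0.81 ± 0.11, edgeR adjusted p = 0.00171; 0.0247 with the muscle covariate). Of 14 glycolysis genes 10 rose (7 to 10 when any library was left out, 1 with the muscle covariate, 3 without CIA 2 and CIA 4), among them the muscle isoforms Pgam2 (990 ± 61.6 and 558 ± 210 CPM; 0.83) and Eno3 (2995 ± 312 and 1530 ± 696 CPM; 0.97; edgeR adjusted p = 0.0103 and 0.0115). Slc2a4, the insulin-responsive transporter GLUT4, averaged 715 ± 68.2 and 352 ± 160 CPM without overlap (1.02, edgeR adjusted p = 0.0128). Slc2a1, the basal transporter GLUT1 (12 ± 1.67 and 25 ± 23.5 CPM; -1.05), and Eno1, the general enolase (114 ± 10.2 and 139 ± 39.9 CPM; -0.28), had values of the other sign and were not called. Pnpla3, a lipid droplet hydrolase induced by feeding, had the largest rise among genes named by the rule: 2.67, 0.491, 2.3, 4.95 and 3.89 CPM in CIA+F20 and 0.184, 0.231, 0.384, 0.074 and 0.142 CPM in CIA. Its lowest CIA+F20 library, CIA+F20 2, lay above every CIA library, as the naming rule required (3.79 ± 0.62, edgeR adjusted p = 0.00262; 0.0397 with the muscle covariate). Of 14 genes of lipogenesis and the lipid droplet 2 rose and 2 fell (7 rose without CIA 5; falls were 0 without CIA+F20 1, 3, 4 or 5, CIA 2 or CIA 4; 1 and 0 in both of the other fits). Both shares, 14.3% each, were near those of all tested genes (14.1% higher and 15.5% lower). Acaca, acetyl-CoA carboxylase, rose (10.2 ± 1.92 and 4.81 ± 1.47 CPM; 1.08, edgeR adjusted p = 0.0154), and Fasn was not called (112 ± 59 and 30.9 ± 20.5 CPM; 1.85, edgeR adjusted p = 0.0596). Of 11 adipocyte genes Lpl and Cd36, both also abundant in muscle, rose and Adipoq did not (0.35); 5 rose without CIA 5 and 0 in both of the other fits.

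Of 18 general skeletal muscle genes 5 rose (11 without CIA 3, 0 with the muscle covariate, which holds these genes, and 2 without CIA 2 and CIA 4). Fast-fibre Myh1 (15939 ± 2970 and 13971 ± 4770 CPM; log2 fold change 0.19) and Myh4 (7719 ± 4163 and 5861 ± 3435 CPM; 0.40) were not called. Myh2, the myosin of oxidative fast fibres, stood at 8875, 9142, 5240, 9836 and 9403 CPM in CIA+F20 and at 4253, 2379, 3679, 1935 and 5126 CPM in CIA. The lowest CIA+F20 library, CIA+F20 3, was just above the highest CIA library, CIA 5 (1.29 ± 0.26, edgeR adjusted p = 0.00469). Mb, myoglobin, averaged 6930 ± 590 and 3236 ± 1082 CPM (1.10, edgeR adjusted p = 0.00483). Acta1, skeletal actin, averaged 25581 ± 3874 and 17340 ± 4433 CPM (0.56, edgeR adjusted p = 0.0416), a call lost in 7 of the 10 fits without a library.

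Slow-fibre genes had the largest median of any list that rose, 2.02, with 6 of 9 called higher. Myl2, the slow regulatory light chain, stood at 777, 699, 351, 780 and 561 CPM in CIA+F20 and at 143, 53, 77.9, 70.5 and 438 CPM in CIA (log2 fold change 2.02 ± 0.51, edgeR adjusted p = 0.0122). CIA 5 lay within the CIA+F20 range while the other CIA libraries were far below it. Tnnc1, slow troponin C, showed the same: 540, 453, 231, 478 and 316 CPM in CIA+F20 and 17.8, 26, 19.1, 31.4 and 303 CPM in CIA (2.35 ± 0.73, edgeR adjusted p = 0.028). Without CIA 5 the log2 fold changes were 2.88 and 4.10 and all 9 genes were called; 2 were called without CIA+F20 1, CIA+F20 4, CIA 1, CIA 2 or CIA 4, 3 without CIA+F20 2, and 0 both with the muscle covariate and without CIA 2 and CIA 4. Myh7, the slow myosin, averaged 1561 ± 567 CPM in CIA+F20 and 343 ± 673 CPM in CIA and was not called (2.19 ± 0.98, edgeR adjusted p = 0.0994). Slow fibres are clustered in particular forelimb muscles, and the sources used here do not say which muscle remained on each sample.

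Genes that muscle turns on after denervation or injury were lower in part: 6 of 16 fell and 1, the satellite cell gene Pax7, rose. No gene rose without CIA+F20 1, 2 or 4 or CIA 2, 4 or 5, and falls were 2 without CIA+F20 4, CIA+F20 5 or CIA 2 and 3 without CIA+F20 2 or CIA+F20 3, with 0 under the muscle covariate and 1 without CIA 2 and CIA 4. Runx1, which sustains denervated muscle and is also a blood cell factor, stood at 25.3, 10.8, 14, 9.16 and 10 CPM in CIA+F20 and at 30.5, 115, 32.6, 108 and 46 CPM in CIA. There was no overlap (log2 fold change -2.26 ± 0.39, edgeR adjusted p = 0.00303; 0.0108 without CIA 2 and CIA 4). Gadd45a, a stress gene of atrophying muscle, stood at 38.5, 17, 27.5, 6.88 and 6.85 CPM in CIA+F20 and at 19.4, 175, 31.4, 340 and 108 CPM in CIA (-2.80, edgeR adjusted p = 0.0107; -2.11 without CIA 4). Ankrd1, a stretch-responsive muscle gene named after its values were seen, stood at 54.9, 5.48, 7.71, 12.8 and 11.6 CPM in CIA+F20 and at 33.7, 944, 9.56, 2063 and 48.1 CPM in CIA. Its log2 change, -5.07 ± 1.27 (edgeR adjusted p = 0.0118) rests on CIA 2 and CIA 4, without which the edgeR adjusted p was 0.502. The ubiquitin ligases of atrophy, Trim63 (-0.93 ± 0.52) and Fbxo32 (-0.42 ± 0.41), were not called, and of 12 excitation-contraction genes Stac3 and Trdn rose (7 without CIA 3, 5 without CIA 5, 1 in the fits without each of the others except CIA+F20 5; 0 with the muscle covariate and 1 without CIA 2 and CIA 4).

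Core clock genes were called in both directions. In the list 27.8% rose and 11.1% fell, against 14.1% and 15.5% of all tested genes, so the falls were no more frequent than elsewhere. Of 18 tested 5 rose and 2 fell (1 and 2 with the muscle covariate, 2 and 4 without CIA 2 and CIA 4; 3 rose without CIA+F20 4, CIA+F20 5, CIA 1 or CIA 4, while 5 fell without CIA+F20 2 and 1 in 6 of the other fits without a library). Arntl, the activator BMAL1, stood at 30.7, 7.41, 21.6, 56.3 and 59.1 CPM in CIA+F20 and at 3.13, 2.61, 5.84, 9.14 and 6.13 CPM in CIA (healthy 56.1 to 70.5 CPM). CIA+F20 4 and CIA+F20 5 were at the healthy level, CIA+F20 2 was within the CIA range, and the log2 fold change was 2.70 ± 0.47 (edgeR adjusted p = 0.00301; 0.0308 with the muscle covariate). Per2, a repressor expressed in antiphase, stood at 6.21, 26.6, 11.3, 13.7 and 9.13 CPM in CIA+F20 and at 42, 34.8, 34.1, 20.3 and 47.1 CPM in CIA (healthy 11 to 13.1 CPM), with CIA+F20 2 again on the CIA side (-1.41 ± 0.31, edgeR adjusted p = 0.0068). Clock averaged 47.8 ± 10.1 and 27 ± 4.19 CPM (0.83, edgeR adjusted p = 0.00354). Dbp, an output gene, ran from 8.45 to 172 CPM in CIA+F20, from 23.1 to 168 CPM in CIA and from 8.71 to 10.2 CPM in healthy libraries (-0.74 ± 0.69, not called). Time of day and group cannot be told apart here.

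Stress-response genes gave single large changes. Hmox1, the haem-degrading enzyme induced by NRF2 and by free haem, stood at 22.7, 13.7, 11.5, 10.9 and 11.8 CPM in CIA+F20 and at 14.3, 212, 20.9, 238 and 41.9 CPM in CIA (log2 fold change -2.90 ± 0.66, edgeR adjusted p = 0.00761; 0.406 with the muscle covariate and 0.086 without CIA 2 and CIA 4). CIA 2 and CIA 4 were high, and CIA 1 and CIA 3 were within the CIA+F20 range. Of 10 NRF2 target genes it and Gclm fell (7 without CIA 1 or CIA 3, 4 without CIA 5, 0 in both of the other fits), and Nqo1, the usual reporter of the pathway, did not (-0.09). The heat shock genes Hspa1a and Hspa1b, paralogues too alike for their reads to be told apart with certainty, rose (3 of 16 genes of the list rose, 1 without CIA+F20 4, CIA 1 or CIA 2, 0 with the muscle covariate and 2 without CIA 2 and CIA 4). Hspa1b stood at 10.5, 8.02, 3.78, 85.1 and 33.8 CPM in CIA+F20 and at 5.71, 3.77, 3.92, 8.32 and 7.87 CPM in CIA (2.26, edgeR adjusted p = 0.0403). Its log2 fold change was 1.25 (edgeR adjusted p = 0.175) without CIA+F20 4, and the call was lost in 6 of the 10 fits without a library. Among 13 glucocorticoid-response genes Zbtb16 rose (76.4 ± 24.9 and 33.8 ± 15.6 CPM; 1.18, edgeR adjusted p = 0.00875) and 4 fell (2 without CIA+F20 3, 4 or 5 or CIA 2), but 0 rose in both of the other fits and 0 fell with the muscle covariate and 1 without CIA 2 and CIA 4. Those that fell included Tsc22d3, the mediator GILZ (132 ± 21.8 and 208 ± 51.7 CPM; -0.66, edgeR adjusted p = 0.0156). Of 16 immediate early genes 4 fell (2 without CIA 2 or CIA 4, 0 with the muscle covariate, 1 without CIA 2 and CIA 4). Fosl2, an AP-1 subunit with roles in bone and inflammation, averaged 24.6 ± 5.7 and 57.7 ± 23.6 CPM (-1.23, edgeR adjusted p = 0.00716), while Fos (-0.03) and Jun (0.07) were not called.

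Vessel growth factor genes rose in part. Of 10 angiogenic genes 4 rose (Vegfa, Vegfb, Angpt1 and Nrp1) and Nrp2 fell, a call lost without CIA 2. Of the list 3 to 5 rose when any library was left out, 1 with the muscle covariate and 3 without CIA 2 and CIA 4. Vegfa, which muscle fibres express, stood at 457, 401, 393, 491 and 677 CPM in CIA+F20 and at 250, 136, 210, 116 and 202 CPM in CIA (healthy 499 to 738 CPM). All CIA+F20 libraries lay above all CIA libraries (log2 fold change 1.40 ± 0.21, edgeR adjusted p = 0.00222; 0.0348 with the muscle covariate). Kdr, its receptor VEGFR2, stood at 95, 80.8, 91.5, 96.2 and 96.1 CPM in CIA+F20 and at 76.6, 31.9, 52.9, 40.1 and 37.6 CPM in CIA (0.94 ± 0.18, edgeR adjusted p = 0.00435). Of 13 tested endothelial genes Kdr alone rose and Plvap alone fell, 7.69% each, against 14.1% and 15.5% of all tested genes. The count of falls was 0 without CIA+F20 1, 2, 3 or 4 or CIA 1, 2, 3 or 4, and 3 without CIA 5. Neither Kdr nor Plvap was called with the muscle covariate (edgeR adjusted p = 0.0854 and 0.258). The general endothelial genes Pecam1 (117 ± 8.14 and 116 ± 18.2 CPM; 0.01) and Cdh5 (94.7 ± 11 and 81.8 ± 8.62 CPM; 0.21) were not called.

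Outside the lists, Lgi1, a secreted ligand of synaptic receptors, stood at 14.5, 11.9, 7.43, 20 and 16.7 CPM in CIA+F20 and at 2.81, 1.06, 2.42, 0.666 and 5.92 CPM in CIA (healthy 12.5 to 20.4 CPM). CIA 5 came nearest to the CIA+F20 libraries, and the log2 fold change was 2.45 ± 0.44 (edgeR adjusted p = 0.00332), or 3.04 without CIA 5. Scube2, a secreted protein that helps release Hedgehog ligands, averaged 5.4 ± 1.66 and 1.27 ± 0.725 CPM (2.09, edgeR adjusted p = 0.00321). Mettl21e, a methyltransferase of skeletal muscle, averaged 15.3 ± 5.53 and 3.4 ± 2.39 CPM (2.18), Gbp10, a guanylate-binding protein, 21.2 ± 12 and 4.49 ± 1.95 CPM (2.25), and Zp2, best known from the egg coat, 2.61 ± 1.21 and 0.415 ± 0.27 CPM (2.63). Vwa3a (4.38 ± 1.42 and 0.81 ± 0.457 CPM) had a log2 fold change of 2.43, as did Sbk3 (18.8 ± 8.04 and 3.46 ± 2.92 CPM), which stood at 3.05 without CIA 5. Among the falls, Galnt6, which starts mucin-type glycosylation, averaged 1.27 ± 0.211 and 6.06 ± 2.22 CPM without overlap (-2.26 ± 0.44, edgeR adjusted p = 0.00413).

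For many genes the data bound the difference closely. The 95% interval of the log2 fold change lay within a 1.5-fold change in either direction for 5581 genes, 35.4% of those tested, and 692 of them were called. For the remaining genes without a call, a missed threshold does not show that the groups were alike.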

How the data were processed

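The deposited table holds raw read counts per gene, whole numbers without normalization, for 26688 genes; per the submitters' processing notes the authors used fastp 0.23.2, HISAT2 2.2.1 and featureCounts 2.0.3. Strand setting, annotation release and handling of multiply mapped reads are not stated in the sources used here, so genes with near-identical copies or overlapping neighbours are uncertain. The series design text names DESeq2 for the authors' own tests, which were not used.

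Counts were analysed in R 4.3.3 with edgeR 4.0.16. Genes passed filterByExpr with a minimum count of 10, libraries were scaled by TMM, and the 3 groups were fitted together by quasi-likelihood. CIA+F20 was contrasted with CIA, with Benjamini-Hochberg adjustment over the 15770 tested genes and a threshold of 0.05. Shares of reads were compared by exact permutation in scipy 1.17.1. Depth ran from 19487687 to 31936703 counted reads in the 10 libraries compared.

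Genes were named by rule: the 10 largest rises and 10 largest falls that were called, averaged 1 or more in log2 CPM and separated the groups in every library, up to 3 called members with the lowest p in each list, and 10 joint genes always; others are members given to fill out a list, chosen after their values were seen. The lists, the motifs and the comparison were chosen with earlier results of these data known. Alternatives were DESeq2 1.42.0, limma-voom (limma 3.58.1), other scalings and filters, a muscle covariate, a replicate block and leaving out libraries; the fit without both CIA 2 and CIA 4 was added after the data were seen. The scripts were tested on simulated counts. Some results are not reported here. Promoters came from GRCm39 with GENCODE M39 transcript starts.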

Additional observations from a re-analysis of the deposited data

Results flagged for a closer look

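Single libraries far from the other 4 of their group were looked for in 342 groups of values, and 23 stood apart by Dixon's criterion; chance alone gives about 1 in 20 groups. CIA 5 held 7 of them. It was high for Gpnmb (32.3 CPM, next 14.4), Itgax (12.1, next 5.25), Igf2 (0.745, next 0.461), Lpl (1531, next 680), Cd36 (747, next 404), Myl2 (438, next 143) and Tnnc1 (303, next 31.4). CIA+F20 1 held 5, all high: Bcl3 (6.32 CPM, next 3.27), Igf2 (2.4, next 1.06), Hmox1 (22.7, next 13.7), Ier3 (17.6, next 7.35) and Il6 (3.16, next 0.444). CIA+F20 3 held 4, all low and all of muscle and its glucose use: Pgam2 (882 CPM, next 1001), Gys1 (528, next 655), Ugp2 (739, next 1018) and Myh2 (5240, next 8875). CIA+F20 4 was low for Aim2 (1.71 CPM, next 2.69) and high for Ptgs2 (2.6, next 0.716). The others were Mmp3 low in CIA+F20 2 (0.859 CPM, next 10.7), Cd4 high in CIA+F20 5 (0.613, next 0.368), mt-Nd5 high in CIA 1 (11519, next 7066), Ctss high in CIA 2 (129, next 64.5) and Kit high in CIA 4 (19, next 9.49).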

How the results depend on the processing

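Of 157 called named genes 118 stayed called in all 10 fits that left out 1 library, and none of the 157 changed sign in any alternative run. Among named genes without a call, signs turned for Il6 (0.43 with the muscle covariate, 0.76 without CIA 2 and CIA 4), S100a8 (0.09 with the covariate), Il1b (0.23 without CIA 2 and CIA 4) and Tnfrsf11b (0.42 with the covariate, 0.07 without CIA+F20 1, 0.02 without CIA+F20 4, 0.33 without CIA 1). With the covariate the medians of the neutrophil (0.08), marrow precursor (0.08) and erythroid (0.63) lists turned positive as well. The counts of calls moved more. Fitting only the CIA+F20 and CIA libraries called 1364 genes higher and 1310 lower. The muscle score as a covariate called 235 higher and 117 lower, with 102 changed at least 2-fold, and 222 and 103 of these were also called without it. Leaving out CIA 2 and CIA 4 together gave 1075, 661 and 338. Leaving out 1 library gave 1478 (without CIA 2) to 3007 (without CIA 5) higher, 1405 (without CIA 2) to 3208 (without CIA 5) lower and 706 (without CIA 2) to 1853 (without CIA 5) changed at least 2-fold. Genes higher made up 47.5% of calls in the fit as reported, 66.8% with the covariate and 61.9% without CIA 2 and CIA 4; the cause was not tested. A replicate block called 2018 higher and 1460 lower, but library numbers did not pair the groups (correlations of same-numbered deviations -0.382 to 0.22). Other scalings (2193 to 2242 higher, 2438 to 2460 lower), DESeq2 (2600 and 3087), limma-voom (1995 and 1700) and other count filters (1841 to 2114 and 1873 to 2357) stayed within 1.5 times the reported totals. Counts per list moved by more in 15 of 68 list counts under DESeq2 (cell cycle 2 to 9, collagens 2 to 5, oxidative burst 3 to 6) and in 24 under limma-voom (acute phase 12 to 2, Fc and complement 12 to 6). List counts moved most with the muscle covariate (65 of 68) and without CIA 2 and CIA 4 (55). With the replicate block 30 moved, and with only the CIA+F20 and CIA libraries 29.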

Other observations

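Growth factor and stress genes outside the lists above gave single calls. Inhba, the activin A subunit, averaged 7.51 ± 1.89 CPM in CIA+F20 and 23.5 ± 17.3 CPM in CIA (log2 fold change -1.64, edgeR adjusted p = 0.0211), a call lost without CIA+F20 1 or CIA 4. Dkk2, a Wnt antagonist, averaged 20.4 ± 11 and 4.07 ± 4.26 CPM without overlap (2.32, edgeR adjusted p = 0.0122; 3.18 without CIA 5), and Sfrp4, another secreted Wnt antagonist, 6.69 ± 1.81 and 28.2 ± 19.5 CPM (-2.07, edgeR adjusted p = 0.0156). Igf1r, the IGF-1 receptor, stood at 32.3, 32.6, 37.4, 27 and 27.9 CPM in CIA+F20 and at 39.8, 87.2, 41.2, 103 and 42.3 CPM in CIA (edgeR adjusted p = 0.00968). CIA 2 and CIA 4 were far above the other CIA libraries, which lay just above CIA+F20. Igf2 went the other way (1.25 ± 0.659 and 0.457 ± 0.167 CPM; 1.43, edgeR adjusted p = 0.00919). With the muscle covariate 0 genes of the TGF-beta and BMP, Wnt and IGF lists were called, and without CIA 2 and CIA 4 1 Wnt and 1 IGF gene fell.

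In the integrated stress response list 4 of 14 genes fell and 1 rose, with 2 falls without CIA+F20 2 or CIA+F20 3; with the muscle covariate 0 rose and 0 fell, and without CIA 2 and CIA 4 1 rose and 0 fell. Ddit4, an inhibitor of mTORC1, averaged 7.4 ± 2.68 CPM in CIA+F20 and 17.2 ± 2.98 CPM in CIA without overlap (-1.22, edgeR adjusted p = 0.0118), and Psat1, of serine synthesis, 5.76 ± 0.793 and 12.8 ± 4.88 CPM (-1.15, edgeR adjusted p = 0.00775). Ddit3, the factor CHOP, rose (38 ± 10.1 and 21.8 ± 5 CPM; 0.80, edgeR adjusted p = 0.00886). Of 11 forelimb Hox genes Hoxc5 alone rose (1.39 ± 0.507 and 0.469 ± 0.253 CPM; 1.55, edgeR adjusted p = 0.00968; 4 rose without CIA 3 or CIA 5, and 0 in both of the other fits). None of 9 Schwann cell and nerve genes was called. Of 16 proteasome genes Psmd4 alone fell (-0.47, edgeR adjusted p = 0.0417; lost in 7 of the 10 fits without a library, with 0 in both of the other fits). Of 8 oxidative burst genes 3 fell, 1 without CIA+F20 4 or CIA 4 and 6 without CIA 3 or CIA 5, and 0 both with the muscle covariate and without CIA 2 and CIA 4; Cyba, the shared membrane subunit of the NADPH oxidases, averaged 14.6 ± 3.56 and 35 ± 17.1 CPM (-1.26, edgeR adjusted p = 0.0105). Of 1569 tested long noncoding RNA genes 193 rose (12.3%) and 119 fell (7.58%), against 14.3% and 16.4% of 14199 protein-coding genes.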
